A study of Drosophila melanogaster with 3 samples.

Results

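Densely clustered binding sites of Jumeau (jumu), a forkhead transcription factor of Drosophila melanogaster, were examined in whole embryos. The sites are peaks of chromatin immunoprecipitation followed by sequencing (ChIP-seq). A peak of the authors' optimal list, the set they kept for reproducibility between replicates, was taken as clustered when at least 3 other optimal summits lay within 10 kb on the same chromosome. The rule was met by 660 of the 3845 optimal peaks (17.2%), and the other 3185 are the comparison. All samples belong to 1 group of 3 biological replicates: embryos of mixed sex, 0 to 24 hours old, of the strain jumu-MiMIC-GFP. In this single fly line an eGFP exon sits in an intron of jumu, so that a fusion protein is made, and it was precipitated with an antibody against GFP. Chromatin had been sonicated to 200 to 800 bp. Controls were not analysed here, and antibody background or open chromatin cannot be told apart from binding. A whole embryo also mixes many cell types and ages, so a strong site in few cells and a weak site in many cannot be told apart.

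Forkhead factors bind DNA through a winged helix domain and regulate genes in many tissues. Jumeau is known for roles in heart, muscle, nervous system and blood cell development, and mutations in jumu modify position-effect variegation, the silencing of genes placed near heterochromatin. A gene whose transcription differs between tissues and stages often has several enhancers spread over its introns and flanks, and in the compact fly genome unrelated housekeeping genes also lie side by side with their start sites close together. Either arrangement can place several binding sites within a short stretch of chromosome.

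The sequences below are the reference at the summits of 8 clustered peaks. They are shown because they span the kinds of cluster described further on: introns of large genes, promoters and DNA outside genes. Each runs from 50 bases before to 50 bases after the summit, 5′ to 3′ on the plus strand of dm6, read from the RefSeq copy of that assembly, and none overlaps an annotated UTR. Capitals mark the forkhead word TGTTTA (or TAAACA on the other strand), the shorter forkhead word GACGC (or GCGTC), or TATCGA (or TCGATA), the core of the DNA replication-related element found at many housekeeping promoters. The first, from the strongest clustered peak, lies in an intron of ush (2L:481009-481109), followed by a ph-p promoter (X:2137283-2137383). The next are DNA upstream of tara (3R:16222430-16222530), an intron of Raf (X:2297678-2297778) and an intron of CHES-1-like (X:7703121-7703221). The last are a gro promoter (3R:26042471-26042571), the promoter of lncRNA:CR44619 (X:12752317-12752417) and intergenic DNA whose nearest start site is that of CG7560 (3L:11416906-11417006).
ush intron: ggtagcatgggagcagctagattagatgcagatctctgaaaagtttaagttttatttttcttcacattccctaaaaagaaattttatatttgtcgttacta
ph-p promoter: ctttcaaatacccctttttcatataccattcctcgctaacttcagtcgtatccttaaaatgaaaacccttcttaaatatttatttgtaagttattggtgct
tara upstream: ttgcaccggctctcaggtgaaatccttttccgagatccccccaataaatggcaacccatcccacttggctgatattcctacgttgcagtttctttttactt
Raf intron: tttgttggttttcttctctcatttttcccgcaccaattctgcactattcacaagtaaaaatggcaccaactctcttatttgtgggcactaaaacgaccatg
CHES-1-like intron: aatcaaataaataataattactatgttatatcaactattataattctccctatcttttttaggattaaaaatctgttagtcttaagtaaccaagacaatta
gro promoter: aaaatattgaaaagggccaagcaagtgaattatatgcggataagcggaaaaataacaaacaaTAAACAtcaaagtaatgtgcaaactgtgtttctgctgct
lncRNA:CR44619 promoter: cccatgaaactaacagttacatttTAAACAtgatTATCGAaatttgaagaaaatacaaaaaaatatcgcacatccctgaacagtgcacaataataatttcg
CG7560 flank: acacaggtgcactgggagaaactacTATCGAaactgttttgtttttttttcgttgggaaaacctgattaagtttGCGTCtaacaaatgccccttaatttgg
No capitals appear in the first 5 windows, and GC content ran from 20.8% in the CHES-1-like intron to 46.5% upstream of tara. The lncRNA:CR44619 window holds a forkhead word and the TATCGA word, and the CG7560 window holds GCGTC and TATCGA.

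Chaining clustered peaks whose neighbours lay within 10 kb gave 184 groups, of which 140 held at least 2 members and 44 held 1 member whose neighbours did not meet the rule themselves. There were 105 clusters of at least 4 members, with 538 of the 660 peaks, and 10 clusters of at least 8. The largest held 11. Clusters of at least 4 spanned a median of 9197 bp, from 2255 to 36737 bp. Adjacent members of a cluster lay a median of 1877 bp apart (quartiles 899.5 and 3772 bp, 476 pairs). A second, narrow group of spacings stood near 200 bp: 54 of the 476 pairs (11.3%) were under 250 bp, and 45 of these were at most 210 bp. The smallest gap was 199 bp, in the pooled members and also in each replicate's strongest peaks, and most peaks shared 1 width, 420 bp (77.0% of clustered and 82.1% of other peaks). Among clustered peaks 109 (16.5%) had another optimal summit within 250 bp, against 6.31% of the other peaks, which describes the same distances that the rule used. Whether such pairs are 1 site called as 2 peaks was not tested. Merging them, an alternative chosen after seeing the data, left 525 clustered peaks in 123 clusters of at least 2.

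**Figure D1:**
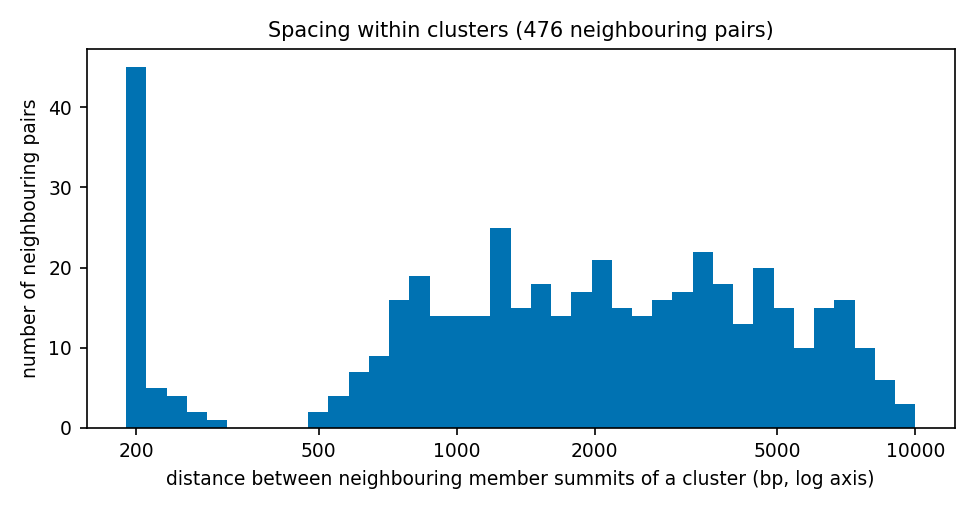
Number of neighbouring pairs of clustered peaks (y axis) by the distance between their summits in bp (x axis, log scale), for all 476 pairs within clusters. A narrow column near 200 bp, with 45 pairs at or under 210 bp, stands apart from a broad spread whose overall median is 1877 bp.

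In the pooled list the promoter share was lower and the intron share higher among clustered peaks than among the other optimal peaks. The promoter difference is tested over replicates further on, and the intron difference was not tested. A promoter summit is one within 500 bp of any annotated transcription start site (TSS). Of the clustered peaks, 328 (49.7%, 95% Wilson interval 45.9 to 53.5%) lay at promoters, against 1883 of the others (59.1%, 57.4 to 60.8%). Introns held 248 clustered peaks (37.6%, 34.0 to 41.3%), against 857 others (26.9%). Intergenic DNA held 62 (9.39%), against 376 (11.8%). These intervals cover counting error only and treat peaks as independent, which neighbours in 1 cluster are not. The median distance to the nearest start site was 515.5 bp for clustered and 253 bp for other peaks. Surroundings differed too: the median number of protein-coding genes with a start site within 10 kb was 4 for clustered and 3 for other peaks, and the median number of weaker pooled summits within 10 kb was 8 and 6. The promoter share also varied with the number of neighbours. It was 56.7% of the peaks with no neighbour, 59.6% of those with 1 and 62.1% of those with 2. With 3 and with 4 neighbours it was 52.2%, with 5 it was 50% (of 50 peaks) and with 6 it was 31.4% (of 35). The 6 peaks with 9 neighbours were all intronic, and they came only from the Raf and CHES-1-like clusters. Peaks with many neighbours share few clusters, so they are not independent.

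Sorted by gene after their values were seen, the 105 clusters of at least 4 members fell into 3 kinds. In 46 clusters with 235 peaks, at least 70% of the members lay in the body of 1 gene. Introns held 68.1% of those peaks and promoters 29.4%. In 32 of the remaining clusters, with 168 peaks, the promoters of at least 3 genes were covered, and 86.3% of the summits were promoter summits. The other 27 clusters with 135 peaks had 35.6% of their summits in intergenic DNA. Gene bodies and promoters defined the kinds, so these location shares follow in part from the sorting itself. The median signal was alike in the 3 kinds, at 200.1, 200.8 and 202.5. Signal is the authors' own value for a peak from their peak caller. Of the 46 clusters in 1 gene, 15 lay on the X chromosome, as did 5 of the 32 runs of promoters and 5 of the other 27.

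**Figure D2:**
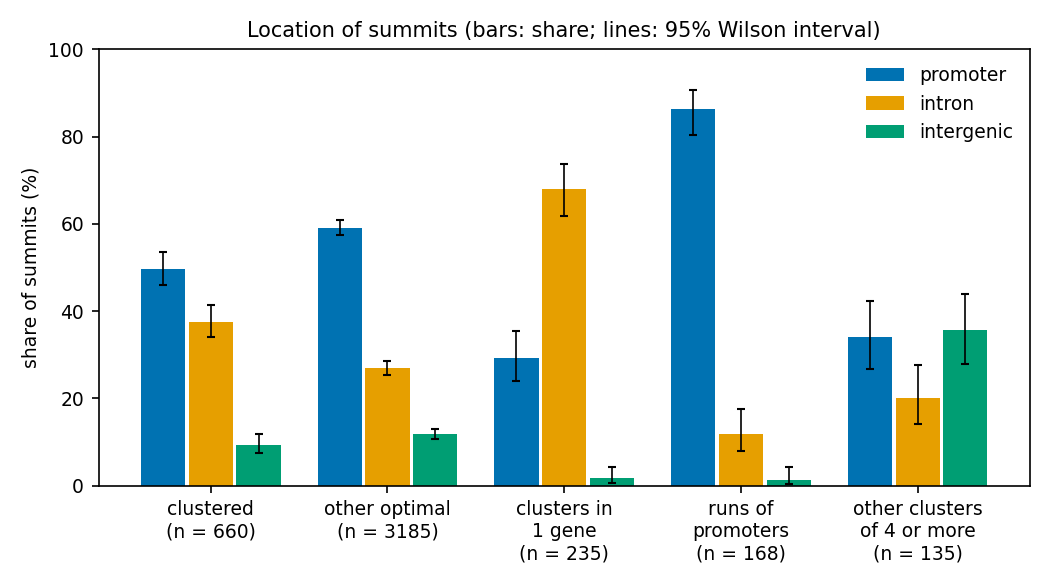
Share of summits (y axis, %) at promoters, in introns and in intergenic DNA for clustered peaks, other optimal peaks and the 3 kinds of cluster (x axis), with 95% Wilson intervals as lines. Introns hold 68.1% of the peaks in clusters within 1 gene, and promoters hold 86.3% of the peaks in runs of promoters. The kinds were defined by gene bodies and promoters, so their shares follow in part from that sorting.

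The clusters within 1 gene were led by tara, Raf, CHES-1-like and ush, which encode regulators of development. At tara, a gene of the trithorax group that also acts in the cell cycle, 9 of 11 members lay in the gene body (3R:16225651-16260329), 8 of them in introns. The pair of intergenic members upstream, nearest to lncRNA:CR45643, was the strongest, with signals of 1799 and 903, while the members in the gene body ran from 114 to 294. Relative signal, which divides a replicate's signal by its median over matched optimal peaks, makes the replicates comparable. At the first of these it was 10.5, 9.32 and 8.83 in replicates 1 to 3, and at the second 5.43, 4.07 and 4.87. Both stood far above the median of 1 in all 3 replicates. They were singled out by pooled signal made from these replicates, so that height is not independent of the choice.

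Raf, the kinase that links Ras to the MAP kinase cascade, had 8 members in its body (X:2295466-2343870), 7 of them in introns and 1 in the 5′ UTR, and 2 more lay at the neighbouring promoter of CG2865. The 10 summits spanned 12920 bp. The strongest, in an intron 2262 bp from a Raf start site, had a signal of 1288 and relative signals of 7.02, 6.83 and 6.70 in replicates 1 to 3. The next, in the 5′ UTR, had a signal of 647 and relative signals of 3.21, 3.61 and 3.73. Its neighbour 208 bp away had relative signals of 1.32, 0.499 and 0.354, so only replicate 1 placed it above the median. CHES-1-like, a forkhead gene closely related to jumu, held all 10 members of its cluster (X:7682338-7709385), 8 in introns and 2 at start sites. None was much stronger than the rest. The highest, an intronic peak, had a signal of 563 with relative signals of 3.23, 2.60 and 3.13, and a start site peak followed with 451. Of the strongest peaks of each replicate, 9 to 10 clustered summits lay in the Raf cluster and 9 to 10 in the CHES-1-like cluster.

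At ush, a cofactor of GATA factors in heart and blood cells, the cluster of 9 also covered cbt, a zinc finger gene of dorsal closure nested in the same interval. An intronic ush peak 1371 bp from the cbt start site was the strongest of all clustered peaks, with a signal of 3722 and relative signals of 20.8, 19.8 and 19.1. It was 3.83 times as strong as the next member, the cbt promoter peak with 972, and 30.5 times as strong as the weakest. CG1677 held the most members of any protein-coding gene, 13 in a body of 124709 bp that also contains brk, a repressor of Dpp targets, and unc-119. All 9 peaks of its main cluster were modest, from 115 to 292, and they also lie within lncRNA:CR44357, which likewise holds 13 members, so the gene they belong to is uncertain. CG14434 had 6 members (strongest 493), and Kdm2, a histone demethylase gene, 6 in a body of 10751 bp (strongest 261).

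**Figure D3:**
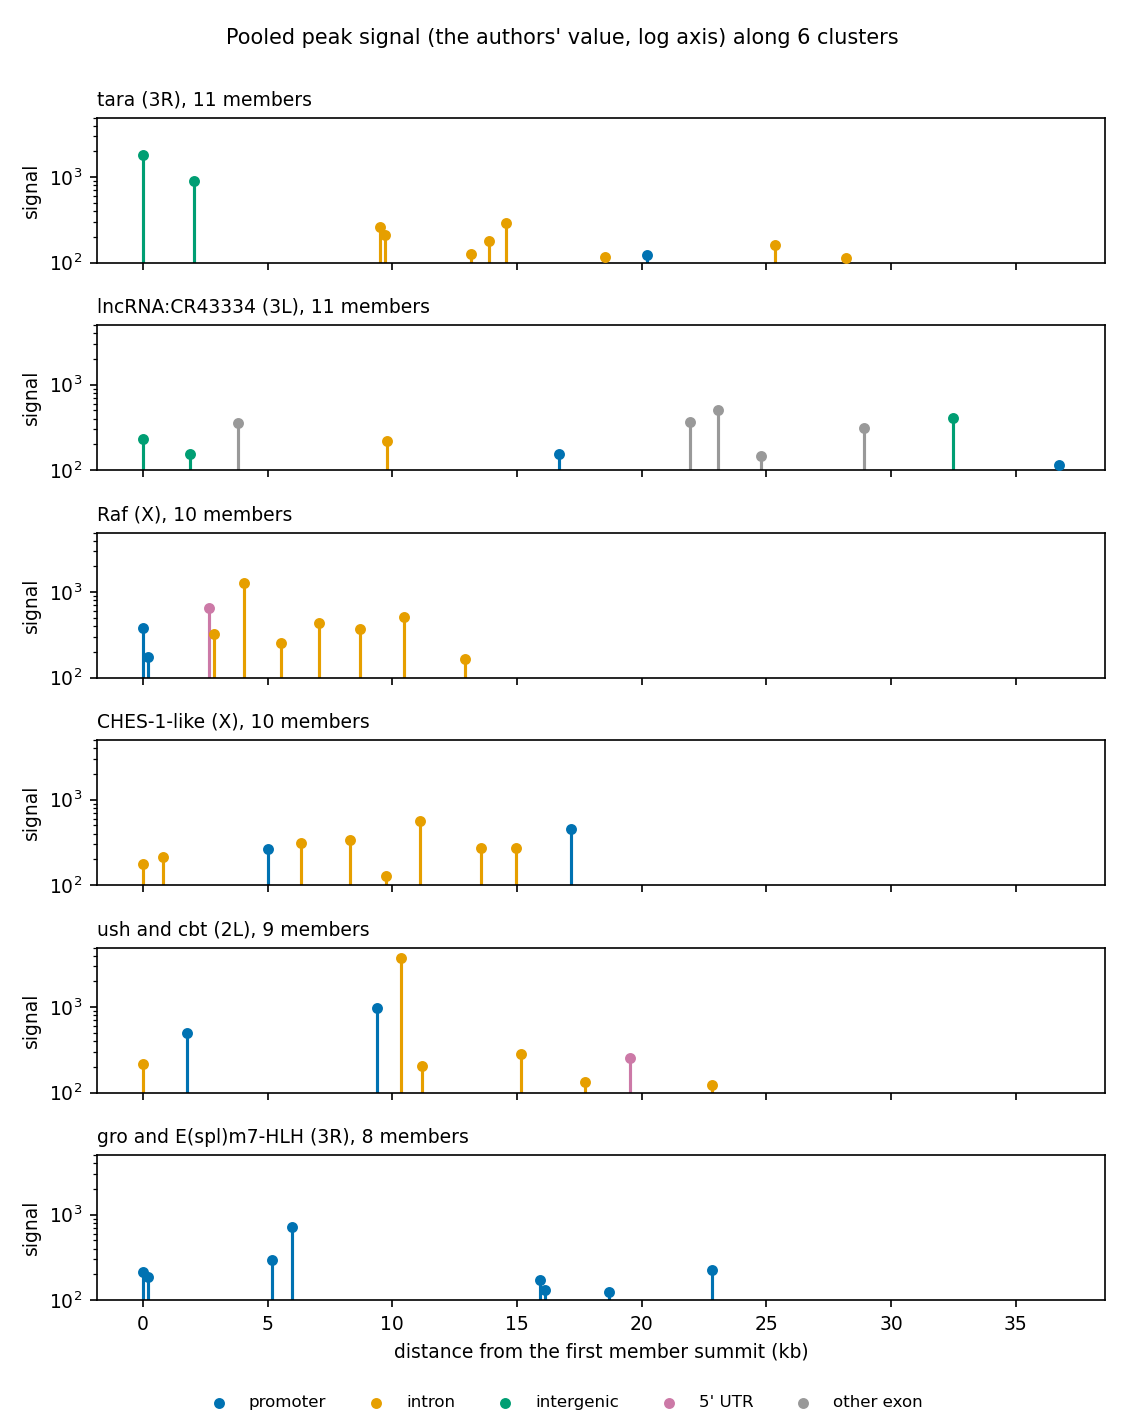
Pooled signal of each clustered peak (y axis, log scale, the authors' value) against its distance in kb from the first summit of its cluster (x axis), for 6 clusters, coloured by location. The ush and cbt cluster is dominated by 1 intronic peak of 3722, the tara cluster by 2 intergenic peaks, and CHES-1-like has 10 peaks between 129 and 563.

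Runs of promoters joined genes with unlike roles. The largest held 10 peaks on 3R over 25873 bp, at the promoters of PTPMT1, a mitochondrial phosphatase gene, SdhD, a succinate dehydrogenase subunit, CG10375, tst, an RNA helicase, the nucleoporin gene Nup98-96 and mbc, which acts in myoblast fusion. Its strongest peaks lay at PTPMT1 (743) and Nup98-96 (563), and 3 members were in introns of mbc. The PTPMT1 peak had relative signals of 3.88, 4.85 and 3.24, so replicate 2 was the highest there. A run of 9 on the X joined Usp30, lncRNA:CR45668, Act5C, a cytoplasmic actin gene, and CG12236, with 5 promoter and 4 intronic peaks. The strongest peak of that run was at the start of lncRNA:CR45668 (608), and the Act5C promoter had 125. All 8 peaks of a run on 3R were promoter peaks, from E(spl)m7-HLH, a basic helix-loop-helix repressor that responds to Notch, over gro, the co-repressor Groucho, to Exo84 of the exocyst, Vps2, Cmpk and Trmt61. The gro peak had a signal of 723 and relative signals of 3.96, 4.17 and 3.23, and the other 7 had 125 to 295. That run was not found as clustered among the strongest peaks of replicates 2 and 3, where 0 clustered summits lay in it. A run of 7 on the X joined CG4199, Rtca, CG16903 and Unc-76, an axonal transport gene, and its strongest peak was in an intron of Unc-76 (366). Replicate 2 likewise had 0 clustered summits there. The other 13 of the 15 clusters with the most members held clustered summits in every replicate.

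The remaining large clusters covered noncoding RNA genes, intergenic DNA or mixed neighbourhoods. At lncRNA:CR43334 on 3L, 11 peaks spanned 36737 bp, the longest span of any cluster. Of these, 5 lay in exons of noncoding RNAs, 3 in intergenic DNA, 1 in an intron and 2 at promoters. The strongest had a signal of 510 and relative signals of 2.85, 2.65 and 1.09, so replicate 3 was far below the other replicates. JIL-1, a histone H3 kinase gene that counteracts heterochromatin spreading, had a cluster of 7 with its strongest peak in an intron (583). That peak's relative signal averaged 3.09 ± 0.285 (SD, n = 3). The cluster ended at APP-BP1, a neddylation enzyme subunit gene (479). On 3L a group of 7 peaks lay between lncRNA:CR44363 and CG7560, 6 of them intergenic, with a highest signal of 473. In another stretch of 3L, 7 peaks lay entirely in intergenic DNA nearest to hng3 and to isoleucine tRNA genes, up to 15510 bp from a start site. Their signals ran from 134 to 302, and the highest had relative signals of 1.58, 1.45 and 1.93.

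Of the 10 strongest clustered peaks, 6 lay at promoters, 3 in introns and 1 in intergenic DNA. After the ush peak came ph-p, a gene of Polycomb repressive complex 1, with 2327 and relative signals of 13.3, 13.6 and 10.7. The tara upstream peak followed, then larp, an RNA-binding protein gene, with a promoter peak of 1738. Rtnl1, a reticulon gene, had 1483 at a promoter and all 6 members of its cluster at start sites. Tlk, a Tousled-like kinase gene, had an intronic peak of 1411. Next came a pair of promoter peaks at lncRNA:CR44619 (1408 and 1228), the Raf intron and the promoter of CG3552 (1204). Each of these 10 was at least 5.45 times its replicate's median in every replicate, and the replicates differed little beside that distance. The 10 were chosen by pooled signal made from these same replicates, so their height in each replicate is not independent of the choice.

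**Figure D4:**
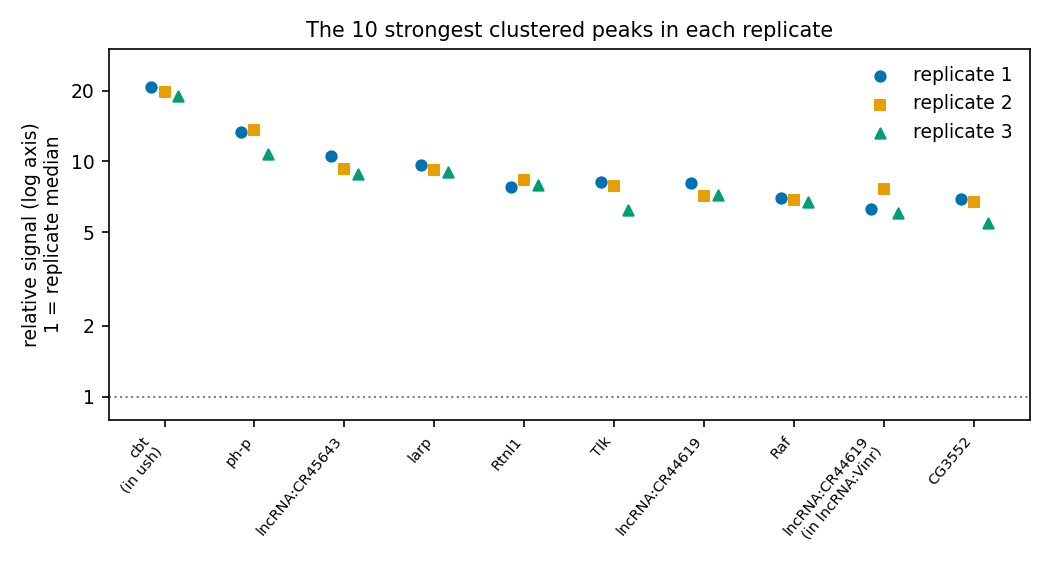
Relative signal (y axis, log scale, 1 is the median of matched optimal peaks in that replicate) of the 10 strongest clustered peaks (x axis, nearest start site and, where it differs, the gene whose body holds the summit), with 1 point per replicate. All 30 points lie above 5, and the peak near cbt stands highest at 19.1 to 20.8. The peaks were chosen by pooled signal made from these same replicates.

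Signals within a cluster were unequal. In the 105 clusters of at least 4, the strongest member had a median of 3.32 times the signal of the weakest, from 1.26 to 30.5 times, and in 30 of them it had at least 2 times the signal of the next. The strongest member lay at a promoter in 53 clusters (50.5%), in an intron in 38 (36.2%) and in intergenic DNA in 11 (10.5%). These shares are close to those of all clustered peaks, 49.7, 37.6 and 9.39%. Of the 107 clusters with at least 3 members matched in every replicate, 74 (69.2%) had the same strongest member in all 3. Where the pooled signal of the strongest was at least 2 times that of the next, this held in 33 of 33. The pooled list was made from these replicates, so these counts are not independent of it.

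The median signal of clustered peaks was above that of the other optimal peaks in each replicate, a difference that 3 replicates cannot take past a threshold of 0.05. In the pooled list the median signal was 196.0 for clustered peaks (quartiles 144.2 and 301.0) and 178.5 for the others (137.0 and 268.2), and 89 clustered peaks (13.5%) were among the 384 strongest, against 295 others (9.26%). The median relative signal of clustered peaks was 1.08, 1.07 and 1.09 in replicates 1 to 3, against 0.988, 0.985 and 0.982 for the others. The difference was 0.0979 ± 0.0128 (SD, n = 3), higher in 3 of 3 replicates, with an exact two-sided sign-flip permutation p of 0.25, the smallest that 3 replicates allow. A replicate summit within 100 bp was found for 96.5, 95.6 and 95.3% of clustered peaks, against 98.2, 94.1 and 95.5% of the others. The difference was −0.0998 ± 1.60 percentage points (SD, n = 3, exact p = 0.75), and replicate 2 alone had the higher share among clustered peaks. Its sign turned without replicate 1 (0.682) and with matching within 50 bp (1.11) or 200 bp (0.293). All 3 replicates matched 584 clustered peaks (88.5%) and 2827 others (88.8%).

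The same rule was then applied to the 3845 strongest peaks of each replicate on its own. It found 682 clustered peaks in replicate 1, 670 in replicate 2 and 740 in replicate 3, or 18.1% ± 0.974 (SD, n = 3) of the peaks. Of the 660 pooled members, 68.3, 62.4 and 60.5% were clustered again in replicates 1 to 3. Among those strongest peaks, clustered or not, a summit within 100 bp was found for 85, 82.4 and 78.8% of the members. The pooled list was made from these replicates, so these shares and the cluster counts that follow are not independent of it. At least 1 clustered summit lay in 84, 83 and 77 of the 105 clusters of at least 4, and 60 of the 105 had one in every replicate, while 5 had none. The promoter share of these clustered peaks was 51.3, 50 and 53.5%, against 59.0, 54.1 and 61.5% of the others. The difference was −6.62 ± 2.15 percentage points (SD, n = 3), lower in 3 of 3 replicates, with the smallest possible exact sign-flip p of 0.25. The replicate lists share many sites, so this spread does not give the counting error. Introns held 32.1% ± 2.75 of clustered and 26.9% ± 1.38 of other peaks (SD, n = 3), a difference that was not tested. In replicates 1 to 3 the intron shares were 34.9, 29.4 and 31.9% of clustered peaks, against 27.4, 28.0 and 25.3% of the others. The gap was thus small in replicate 2. The number of clustered peaks depended on how many peaks were kept. Optimal peaks found among the strongest of both remaining replicates were also counted, and 220 of them were clustered without replicate 1, 259 without replicate 2 and 267 without replicate 3, in sets of 2411, 2612 and 2655 peaks, and effects of a replicate and of fewer peaks cannot be told apart.

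The share of optimal peaks that were clustered was highest on the X and on 2L. It was 20.5% on the X (156 of 760 peaks, 17.8 to 23.5%) and 19.5% on 2L (137 of 704, 16.7 to 22.5%). On 3L it was 17.3%, on 3R 15.4% and on 2R 13.6% (94 of 692, 11.2 to 16.3%). Chromosome 4 had 1 clustered peak of 14. Per megabase there were 6.63 clustered peaks on the X, 5.83 on 2L, 4.55 on 3L, 4.49 on 3R and 3.72 on 2R. Of all clustered peaks, 23.6% lay on the X, which held 19.8% of all optimal peaks. Among the replicates' own clustered peaks 22.9, 22.4 and 17.3% lay on the X, against 18.8, 18.6 and 18.6% of their other peaks, so the direction in replicate 3 was opposite to that in the pooled list. The densest megabase was that from 7 to 8 Mb of the X, with CG1677 and CHES-1-like, where 29 of 47 optimal peaks were clustered. From 2 to 3 Mb of the X, with Raf and ph-p, 25 of 55 were. The same count of 25 was reached on 3R from 9 to 10 Mb, where Kdm2 lies. At the edge of the rule, the strongest peaks with exactly 3 neighbours were the one near lncRNA:CR45643 (1799), Tlk (1411) and LPCAT (1083). The strongest peaks left out with 2 neighbours were px (2639) and Adf1 (1861) on 2R and CG32772 on the X (1806).

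**Figure D5:**
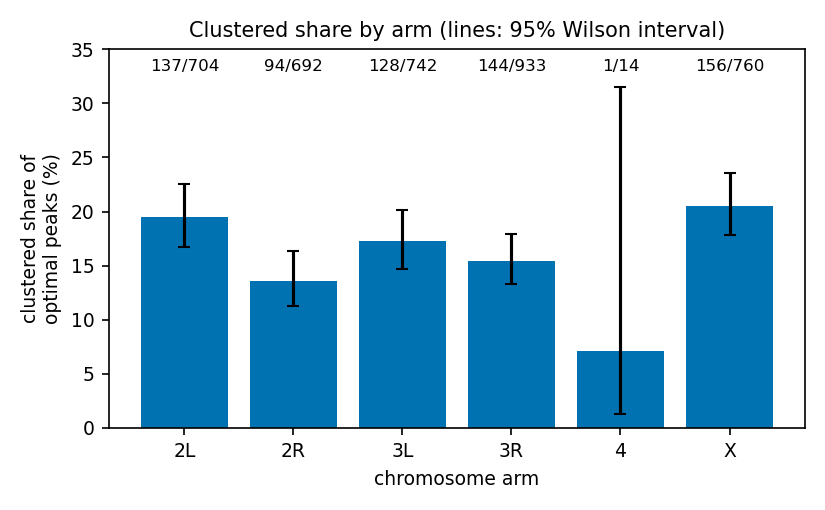
Clustered share of the optimal peaks of each chromosome arm (y axis, %) with 95% Wilson intervals as lines; the numbers above the bars are clustered over all optimal peaks. The share runs from 13.6% on 2R to 20.5% on the X among the 5 large arms, and chromosome 4 has 1 of 14.

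Gene bodies held most clustered peaks: 427 (64.7%) lay in the body of a protein-coding gene, 28 (4.24%) only in that of another gene, and 31.1% in none. No such shares are given here for the other optimal peaks, so these do not set clustered peaks apart. Only 217 of 13945 protein-coding genes held a clustered peak, and 40 held at least 4. The median length of the 217 genes was 8519 bp. That was above the 2166 bp of all protein-coding genes but below the 9258 bp of genes with other optimal peaks only. For the 40 it was 22625.5 bp, and whether their count of peaks follows from their length was not tested. Besides those above, HmgZ, Hr4, Mnt, Rgl, Trl, aop and sbb held 5 each. Counting also peaks within 1 kb of a start site, 436 genes (3.13%) had a clustered peak. Gene lists are given beside that share without a test, and the median gene length of every list, from 3337 to 49917 bp, was above that of all protein-coding genes.

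Of the 19 lists, those for Ras and MAPK and for JNK signalling had the most such genes by count. Optimal peaks of any kind were also frequent there, at 15 of 23 Ras and MAPK genes and 9 of 13 JNK genes. Over all protein-coding genes that share was 24.99%. In the Ras and MAPK list 5 of 23 genes had a clustered peak (median length of the list 18899 bp). They were Raf, the EGF receptor ligand gene spi (strongest peak 802, promoter), S, which acts in the export of that ligand (597, intron), the ETS repressor gene aop (806, intron) and the adaptor gene dos (138). At aop relative signal averaged 4.19 ± 0.111 and at S 3.16 ± 0.0820 (SD, n = 3 each), while at spi it was 4.28 ± 1.23, with replicate 3 the lowest (raw signals 324, 318 and 164 in replicates 1 to 3). In the JNK list 4 of 13 had one: cbt (972), the kinase gene Mkk4 (1044, nearest to SLIRP2), puc, a phosphatase gene that limits JNK (283), and the kinase gene msn (273). In the Notch list there were 3 of 15, gro (723), neur, which promotes endocytosis of the ligand Delta (260), and the co-activator gene mam (131, nearest to RN-tre). In the Dpp list there were 3 of 14, the inhibitory Smad gene Dad (427), brk (204.9) and the zinc finger gene shn (200). For Mkk4, puc, mam and Dad another gene had the start site nearest to the strongest peak. An optimal peak of any kind lay at 8 of 15 Notch and 9 of 14 Dpp genes.

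Chromatin and steroid response genes were represented by a few strong sites. Polycomb and trithorax genes had 3 of 20, ph-p (2327), Trl, the GAGA factor gene (1108, relative signal 6.01 ± 1.02, SD, n = 3), and trx (437). The tara gene is not in that list. Trl had 5 clustered peaks, 4 of them intronic. Heterochromatin genes had 1 of 11, JIL-1. Ecdysone response and nuclear receptor genes had 2 of 19, Hr4 (658, relative signal 3.49 ± 0.266) and Eip75B (365, 1.94 ± 0.346, SD, n = 3 each). The Hippo list had 2 of 15, kibra (183) and wts (116, not matched in replicate 1). JAK/STAT had 1 of 9, the inhibitor gene Socs36E (401). Among lineage lists there were 1 of 17 forkhead genes (CHES-1-like), 1 of 6 GATA factor and cofactor genes (ush), and 2 of 11 hemocyte genes (ush and Antp). Cardiac development had 1 of 14, Mef2 (379, 5′ UTR), neuroblasts and glia 1 of 18, brat (253), Hox 1 of 8, Antp (300), and founder cell adhesion 1 of 17, the netrin receptor gene fra (165). The start site nearest to the strongest peak belonged to another gene for ush (cbt), Hr4, Trl, wts, Socs36E, Antp and fra. No gene had one in the Wnt list (0 of 23), the Toll and Imd list (0 of 14) or the segmentation list (0 of 20), and at the share of all genes fewer than 1 gene would be met in each. Of the same lists 14, 6 and 4 genes had an optimal peak of any kind, a share that was 24.99% over all protein-coding genes. Such peaks lay at 13 of 20 Polycomb and trithorax, 9 of 11 heterochromatin and 13 of 19 ecdysone genes. The counts were 12 of 15 for Hippo and 4 of 9 for JAK/STAT. Among lineage lists they were 4 of 17 forkhead, 3 of 6 GATA, 5 of 11 hemocyte and 3 of 14 cardiac genes. The rest had 4 of 18 neuroblast and glia, 2 of 8 Hox and 8 of 17 adhesion genes.

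Short words were sought on both strands within 50 bases of each summit, and in windows of the same length at all 23581 annotated start sites. TGTTTA stood in 14.5% of clustered and 13.2% of other summits, against 10.7% of start sites. GACGC stood in 7.42% and 6.41%, against 11.8%, and the GAGA word GAGAG in 11.2% and 10.6%, against 12.6%. TATCGA stood in 6.82% of clustered and 11.7% of other summits, against 12.1% of start sites. Among promoter summits alone the shares were 10.7% for clustered and 16.8% for other peaks, and among intronic summits 2.82% and 4.78%. In the replicates' own strongest peaks TATCGA stood in 7.04% ± 1.01 of clustered and 10.8% ± 0.887 of other summits. The difference was −3.74 ± 0.126 percentage points (SD, n = 3), lower in 3 of 3 replicates, again with the smallest possible exact sign-flip p of 0.25. Words are read from 1 reference sequence and the replicate lists share many sites. The spread between replicates, here and for the other words, therefore does not give the counting error of a difference. Differences for TGTTTA (1.03 ± 1.99), GACGC (0.257 ± 1.17) and GAGAG (−0.569 ± 0.779) were smaller than their spread. Of 10 words sought, 2 others differed in 1 direction in every replicate, the core promoter word GGTCACA (−0.377 ± 0.0762) and the word AGATAA, known from erythroid-type zinc finger factors and their fly relatives (0.962 ± 0.420). In the pooled list GGTCACA stood in 1.21% of clustered and 2.32% of other summits, against 4.72% of start sites, and AGATAA in 7.42% and 6.19%, against 4.41%. The remaining words were rare in clustered, other and start site windows: CAGGTAG, bound by Zelda, in 0.606, 0.440 and 0.471%, the E-box CACGTG in 0.909, 1.26 and 1.80%, the AP-1 word TGACTCA in 1.06, 1.07 and 0.806%, and the repeat CACACACA in 1.97, 1.16 and 1.90%. With 10 words and 3 replicates no difference can pass a threshold of 0.05. The share of these words in a window is a count of letters and not of bound sites.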

How the data were processed

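ChIP-seq peak lists of 3 replicates of 1 group were used, in dm6 (dm3 only as an alternative). Per the deposited readme files, the authors made relaxed lists per replicate and for the pooled replicates, and thresholded an optimal list by the irreproducible discovery rate. The caller and its settings: not given in the sources used here. Depth is unknown. The deposited signal value is the authors' own and was used within a list, or divided by a replicate's median over matched optimal peaks. The deposited −log10 q value was not used. Each replicate list held 30000 peaks and the pooled list 29812.

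Summits were the start plus the offset. Gene models were Ensembl release 115 of BDGP6.54, on dm6 coordinates, with 18164 genes. Replicate summits were matched within 100 bp, strongest first. Replicate differences were tested by an exact two-sided sign-flip permutation test, and shares carry 95% Wilson intervals. Calculations used Python 3.11.15, numpy 2.4.6, pandas 2.3.3 and scipy 1.17.1, and the clustering and matching steps were tested on simulated data. Genes named are those holding most members of the 15 clusters with most members, those at the 10 strongest members, the 3 strongest peaks on each side of the neighbour threshold, and list genes with a member; SLIRP2, LPCAT and other neighbours are named as nearest start sites, and genes with 5 members were added after their values were seen. Members and lists were chosen with earlier results of these data known. Of the symbols in the 19 lists, 17 had no match and are not analysed here. The labels call the replicates biological without saying how the embryos were collected, so p-values measure only the spread between these samples.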

Additional observations from a re-analysis of the deposited data

How the results depend on the processing

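Numbers of clustered peaks depended on the rule. They were 232 with a 5 kb window, 1513 with 20 kb, 1448 with at least 2 neighbours, 106 with at least 5 and 142 among the 1922 strongest peaks, and without each replicate they ran from 220 to 267. Clusters of at least 2 numbered 55, 341, 363, 20 and 33 under those 5 settings, and from 50 to 59 without each replicate. The ratio of median signal, clustered over other, was 1.22, 1.08, 1.07, 1.41 and 1.05 in the same order, 1.11 with summits within 250 bp merged (chosen after seeing the data), and 1.12 to 1.20 without each replicate. The promoter share was 44.8, 56.4, 56.4 and 36.8% under the first 4 settings, 40.2% and 60.8% with promoters of 250 bp and 1 kb, and 43.2 to 46.4% without each replicate. The share of clustered peaks that lay on the X was 23.6% as reported, beside 19.8% of all optimal peaks. It was 31.0% with 5 kb and 39.6% with at least 5 neighbours. With 20 kb it was 20.7% and with at least 2 neighbours 21.8%, both close to the share of all optimal peaks. Among the 1922 strongest peaks it was 24.6%, and without each replicate 25.1 to 30%.

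The difference in matched share was 1.11 with matching within 50 bp, 0.293 within 200 bp, and from −0.920 to 0.682 without each replicate, so it has no stable sign. The clustered share of a replicate's peaks was 7.25% in lists of 1922. Genes with a clustered peak numbered 217 by body only and 682 within 5 kb. The TATCGA difference was −7.78 points in windows reaching 100 bases to each side, and there the small GACGC difference of 1.02 points turned to −0.0692. The relative signal and promoter differences kept their sign under every alternative run for them. Those varied the matching distance, the average, the promoter width or the replicates, but not the window or the number of neighbours. With a 20 kb window the pooled promoter share of clustered peaks was 56.4%, close to the 57.5% of all optimal peaks. The sign of the promoter difference between replicates was not tested under such rules. In all, 42 values, that of GACGC among them, counted as unchanged, 40 moved, and 3, all of the matched share, turned sign. Unchanged is a loose label here. Counts had only to stay within a set fold range, and tested replicate differences had only to keep their sign. The relative signal difference thus counted as unchanged at 0.127 with matching within 200 bp, against 0.0979 ± 0.0128 as reported (SD, n = 3). The causes of changes between settings were not tested. The location of dm3 peaks was not run, since no dm3 annotation was used here. With 1 group there were no samples to pair across groups, and each difference was taken within a replicate. Unknown depth, the absence of a control analysed here and n = 3 limit all tests.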
